A study of Homo sapiens with 27 samples.

Results

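A guanine that follows another guanine on the same strand (GG, where the marked base is the second G) is described here across 15 libraries of temozolomide-treated DNA from LN-229, a human glioblastoma cell line. The sites were taken from O6-MeG-seq, which enriches DNA fragments carrying O6-methylguanine by immunoprecipitation and marks the modified base through the stalling of a polymerase. A site entered when the marked base was G, its score was at least 30, it lay on chromosomes 1 to 22, and the base before it was known to be G. Since no genome sequence was used, that base was read from any site which one of the 12 solvent-control libraries had marked at the neighbouring position, complemented where it was on the opposite strand. Of 52922840 G sites in the 15 libraries, 857548 had a known base before them, and 308824 of those (36.0%) were preceded by G. The other known sites were preceded by A in 355355 cases, by T in 158202 and by C in 35167. The 308824 sites lay at 279334 distinct positions, 183630 of them marked in cells.

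The cells were a transfection control, called wild type (WT), and cells transfected with MGMT, the repair protein that moves the methyl group from O6-methylguanine to itself. The labels do not say whether either line was 1 clone. Both received 1 mM temozolomide (TMZ) or 1% DMSO as solvent, either 1 time (1x) or 3 times at 4 h intervals (3x), with DNA collected 24 h after exposure began. Each of these 8 groups had 3 biological replicates. Naked DNA was treated with 1 mM TMZ outside cells, and its 3 replicates came from different cells: non-transfected WT, WT and MGMT-transfected.

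Temozolomide breaks down in water to a reactive species that transfers a methyl group to DNA bases. Most of these adducts form at other positions of the bases, but O6-methylguanine pairs with thymine during replication and is the lesion to which the drug's toxicity in glioblastoma is chiefly ascribed. Methylating agents of this class are known to react with guanine more readily when a purine, in particular another guanine, stands before it.

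Promoter windows show what such sites look like along a sequence. Each window of the RefSeq table (GRCh38.p14) runs from 250 bases before a gene's start to 50 bases after it, and here the base before a site is given by the sequence itself. Among the 33725 autosomal windows used here, which represent 21 of the 22 autosomes, the 3 with the most distinct marked GG positions, over both strands and the 15 libraries, were those of TMEM178A (30 of 112 GG positions), LOC105371412 (30 of 99) and RAD21L1 (29 of 105). The median window had 57 GG positions, of which 4 were marked. The 250 upstream bases of each are printed below on the strand with more marked GG positions, to show how the marks are spread over long and short runs of G. Capitals are G preceded by G that was marked in at least 1 of the 15 libraries, and GG positions that no library marked stay in lower case.

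TMEM178A, chr2:39665667-39665916, plus strand: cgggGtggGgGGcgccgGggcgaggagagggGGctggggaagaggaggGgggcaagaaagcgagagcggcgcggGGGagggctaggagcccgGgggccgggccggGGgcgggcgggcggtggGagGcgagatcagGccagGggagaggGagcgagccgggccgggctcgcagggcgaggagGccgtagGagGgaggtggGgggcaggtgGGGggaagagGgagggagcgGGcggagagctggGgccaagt

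LOC105371412, chr16:89070789-89071038, minus strand: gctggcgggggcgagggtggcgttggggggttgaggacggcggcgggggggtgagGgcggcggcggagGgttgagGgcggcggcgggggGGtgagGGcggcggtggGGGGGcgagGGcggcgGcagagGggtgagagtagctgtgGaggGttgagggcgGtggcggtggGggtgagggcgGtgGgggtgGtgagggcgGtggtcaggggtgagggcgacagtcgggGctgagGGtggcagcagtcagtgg

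RAD21L1, chr20:1225794-1226043, minus strand: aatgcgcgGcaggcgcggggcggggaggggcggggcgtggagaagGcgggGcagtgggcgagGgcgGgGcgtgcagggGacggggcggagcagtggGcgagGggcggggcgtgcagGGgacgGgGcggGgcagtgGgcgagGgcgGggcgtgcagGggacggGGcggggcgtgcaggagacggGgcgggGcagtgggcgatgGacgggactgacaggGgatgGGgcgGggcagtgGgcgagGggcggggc

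The window of TMEM178A, a gene for a transmembrane protein, has 90 GG positions on the printed stretch, and 30 were marked. Over the whole 300-base window and both strands, marks came from 8 of 12 TMZ cell libraries (20 in all) and from all 3 naked DNA libraries (3 to 6 each), and 1 mark was found over the 12 solvent libraries. In the printed stretch of LOC105371412, an uncharacterised locus, 27 of 91 positions were marked. Over its whole window and both strands, 1 library, WT 3x TMZ replicate 3, gave 11 of the 29 marks from TMZ cells. Naked DNA gave 8 and the solvent libraries 2. In the printed stretch upstream of RAD21L1, which encodes a cohesin subunit of meiotic cells, 29 of 95 positions were marked. Its whole window had 24 marks from TMZ cells, 11 from naked DNA and 1 from solvent libraries over both strands. These windows were chosen for their counts, so the counts are a description.

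A GG position was seldom marked in more than a few libraries. Over all members, 25379 of 279334 positions (9.09%) were marked in 2 or more of the 15 libraries, and the most for any position was 11. Libraries of the same library set, defined below, count separately here. The share of other G positions marked in 2 or more libraries is not given. In promoter windows 136255 of 1711456 GG positions (7.96%) were marked in at least 1 library, against 4.36% of the other G positions. Only 207 of them were marked in 4 or more. The 3 promoter GG positions marked in most libraries, picked after their values were seen, are shown with 12 bases on either side and the marked G in capitals, to show their surroundings. Each was followed by C.

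LOC105373614, chr2:129587799-129587823, plus strand: ctcccagcccagGcaggaggtgcac

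SNX15, chr11:65027462-65027486, plus strand: ggcggaggctggGccggaggggtgg

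LOC105378834, chr1:87440657-87440681, plus strand: gcacaatgcttgGcagtgaggagga

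The positions in the windows of LOC105373614 and of SNX15, which encodes a sorting nexin, were each marked in 7 of 15 libraries, 2 of them naked DNA. The position in the window of LOC105378834 was marked in 6, of which 1 was naked DNA. At each of these positions, most of the cell libraries with the mark belonged to library set 3, defined below. Libraries of a set may not be independent. Of the 12 solvent libraries, 1 marked the SNX15 position and 0 marked each of the other two.

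The libraries differed in size and in the share of their sites that lay at G. They held 1347019 to 15745885 sites each, every position and strand listed once, so a site counts once however many reads supported it. At a score of 30 or more, G made up 32.6% to 64.1% of sites in TMZ cells, 67.8% to 70.9% in naked DNA and 19.0% to 27.8% in 11 of the 12 solvent libraries. The remaining solvent library, MGMT 1x replicate 1, had 43.7% at G, against 37.4% in the TMZ library of the same number. The main comparisons of TMZ with solvent are given with and without it. Outside promoter windows its sites still serve to read neighbour bases for the other groups when it is left out. Libraries also fell into 5 sets, each linked by pairs that shared non-G sites more than 1.6 times as often as the median pair, relative to library sizes. Not every pair inside a set did so, and in set 3 the values ran from 0.771 to 3.10 times with a median of 1.16. Set 1 held replicate 1 of all 1x groups and of naked DNA. Set 2 held replicate 2 of the 1x groups and replicate 1 of the 3x groups. Set 3 held replicate 3 of the 1x groups, replicate 2 of the 3x groups and replicate 3 of the 3x TMZ groups, set 4 the remaining 3x solvent libraries and set 5 the other naked DNA libraries. The highest values were in set 1. MGMT 1x solvent replicate 1 had 104055 non-G sites in common with MGMT 1x TMZ replicate 1 and 67859 with naked DNA replicate 1, or 289 and 62.6 times the median pair. WT 1x solvent replicate 1 had 40929 in common with WT 1x TMZ replicate 1 and 62213 with naked DNA replicate 1, or 152 and 65.2 times. Pairs of different sets reached at most 1.398 times. What this sharing adds to the results of set 1 was not tested.

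TMZ-treated cells carried a larger share of their marked G after another G than solvent-treated cells did. For this comparison the base before each site was read from the 9 solvent libraries of the other 3 genotype and exposure groups, for TMZ and solvent libraries alike. Shares under TMZ in replicates 1, 2 and 3 were 34.7%, 31.9% and 35.5% in WT 1x, 30.9%, 28.3% and 34.0% in MGMT 1x, 35.5%, 38.1% and 37.9% in WT 3x, and 34.1%, 37.7% and 36.1% in MGMT 3x. Under solvent they were 24.5%, 20.0% and 20.5% in WT 1x, 30.8%, 19.9% and 19.7% in MGMT 1x, 23.2%, 20.6% and 19.8% in WT 3x, and 20.1%, 20.1% and 21.1% in MGMT 3x. The lowest TMZ library, at 28.3%, lay above 11 of the 12 solvent libraries and below MGMT 1x solvent replicate 1.

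The mean share was 34.6% ± 3.00 under TMZ and 21.7% ± 3.24 under solvent (SD, n = 12 each). The difference was 12.9 points, positive in 12 of 12 same-numbered pairs (p = 2.5e-05 by an exact, two-sided permutation of libraries inside each genotype and exposure group; adjusted p = 0.000305 over 15 comparisons). Single pairs ran from 0.0258 points, in MGMT 1x replicate 1, to 18.1. Without MGMT 1x solvent replicate 1 it was 13.8 points. Within library sets 1, 2 and 3 it was 5.097, 11.6 and 15.9 points, so it was in the same direction in each set and smallest in set 1, which holds that library. The 95% Wilson interval of a single share reached 0.254 to 1.78 points to either side, for counting error only. These shares are weighted to neighbours that solvent libraries mark and are not shares over the whole genome.

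**Figure D1:**
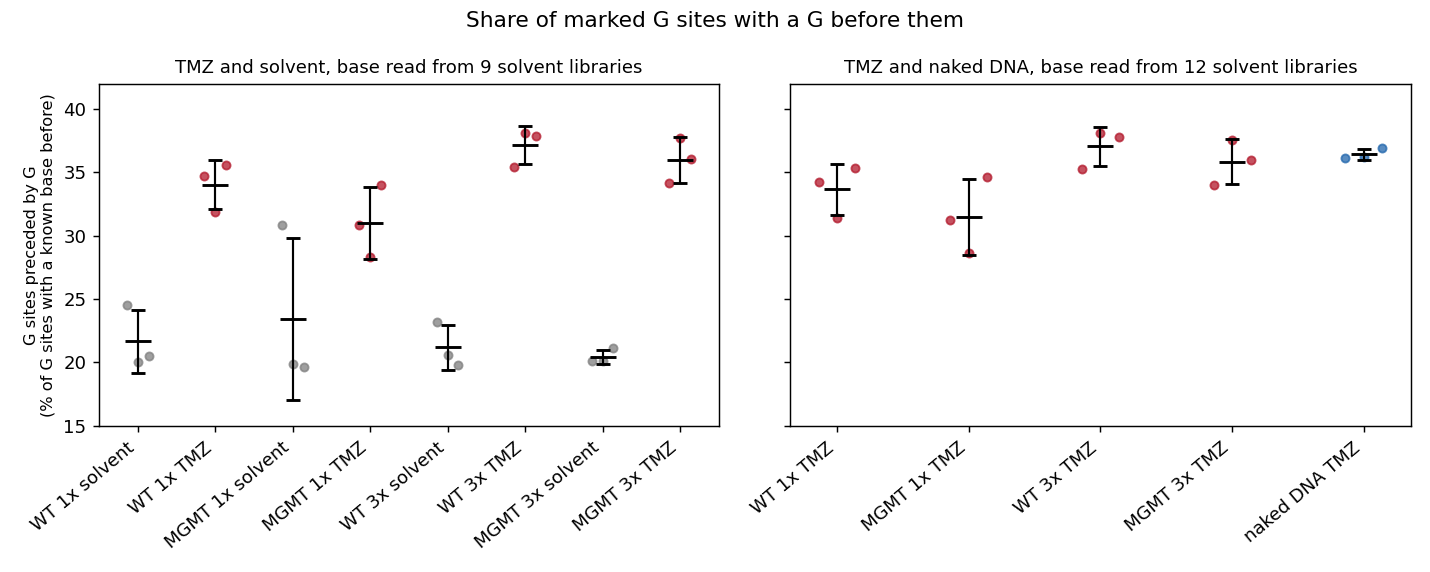
Share of G sites with a known base before them that follow a G (%), 1 point per library, with mean and SD of the 3 replicates in black. The left panel sets TMZ (red) beside solvent (grey), where only MGMT 1x solvent replicate 1, at 30.8%, reaches the TMZ values; the right panel sets TMZ cells beside naked DNA (blue), whose 3 libraries lie between 36.1% and 36.9%.

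Promoter sequences, which supply the number of GG positions that could have been marked, gave the same direction. GG made up 33.1% of the 5170771 G positions in 33725 autosomal windows. The share of them that a library marked, divided by the share of all promoter G that it marked, is called the relative rate. It was 1.41 ± 0.0773 for GG in TMZ cells (SD, n = 12; lowest 1.23, median 1.43, highest 1.49), and it was 1.44, 1.49 and 1.503 in the naked DNA libraries. In solvent cells it was 0.979 ± 0.155 (n = 12; lowest 0.849, median 0.931, highest 1.41), and 0.940 ± 0.0792 without MGMT 1x solvent replicate 1, the highest of them. All TMZ libraries but that of MGMT 1x replicate 2 and every naked DNA library were at 1.33 or above, and no solvent library other than MGMT 1x replicate 1 was above 1.16. On the log2 scale the difference between TMZ and solvent was 0.54 (exact two-sided permutation test, p = 3.75e-05), and 0.59 without that library (exact permutation p = 1.25e-05).

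Among the 4 bases that can stand before a G, G gave the highest relative rate in promoter windows in 12 of 12 TMZ and 3 of 3 naked DNA libraries. A before G, the other purine, had a relative rate of 1.25 ± 0.0456 in TMZ cells and 1.201 ± 0.0163 in naked DNA. C before G had 0.538 ± 0.0701 and 0.514 ± 0.0174, and T before G had 0.514 ± 0.0899 and 0.486 ± 0.0438. In solvent cells GG ranked highest in 2 of 12 libraries, the replicates 1 of WT 1x and MGMT 1x, both of set 1.

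A second measure over all autosomes used only G positions known from an opposite-strand site of the solvent libraries. A G thus did not enter the denominator through a mark on its own strand. The base before it was read from sites of either strand, so its place among GG positions can rest on a same-strand mark. The log2 of the marked share of GG over that of all such G was 0.41 ± 0.26 under TMZ and -0.27 ± 0.37 under solvent (SD, n = 12 each). Solvent values rested on only 2 to 35 marked GG positions per library, and TMZ values on 23 to 193. The lowest solvent value, -1.02 in WT 1x replicate 1, came from 2 marked GG positions. By GG share (24.5%) and promoter relative rate (1.16) that library lay above the solvent means. The difference of 0.68 held in 11 of 12 pairs (exact permutation test, p = 0.0001375, adjusted p = 0.000516), 0.76 without MGMT 1x solvent replicate 1 and 0.37 with no minimum score. On this measure AG was marked more often than GG in WT 1x TMZ replicates 1 and 2 and in MGMT 1x TMZ replicate 2. The marked shares of AG and GG there were 0.0960% and 0.0775%, 0.237% and 0.189%, and 0.117% and 0.0980%. GG was above AG in the other TMZ libraries.

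The base after the marked G (3′) split the GG sites further. Where both neighbours were known, which left 108 to 1186 GG sites per TMZ or naked DNA library, GGT made up 26.8% to 29.3% of them as a mean per group, GGC 24.5% to 27.1%, GGG 22.4% to 24.8% and GGA 21.2% to 23.7% (n = 3 per group). SDs reached 6.34 points in MGMT 1x, the group with fewest sites, and the 4 contexts could not be ranked there. All 4 took a larger share of marked G under TMZ than under solvent.

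GGC differed most: it made up 7.87% ± 1.18 of the G sites with both neighbours known under TMZ and 3.99% ± 0.953 under solvent (SD, n = 12 each; adjusted p = 6.67e-05 over the 16 contexts, exact permutation test). GGT made up 8.37% ± 1.69 and 5.35% ± 1.26 (adjusted p = 0.00025 in the same permutation test). GGG made up 7.07% ± 1.39 and 4.81% ± 1.39 (adjusted p = 0.00315, permutation), and GGA 7.30% ± 0.997 and 5.65% ± 1.15 (adjusted p = 0.00393, permutation). The values of the groups overlapped in each of the 4 contexts. Of all 16 contexts 14 (87.5%) were called in either direction and 43.8% were higher under TMZ, against 4 of 4 among GGN and 3 of the 12 others. Without MGMT 1x solvent replicate 1 the solvent means of GGC, GGT, GGG and GGA were 3.92%, 5.24%, 4.49% and 5.51%, and the same number of contexts and all 4 GGN were called. With no minimum score GGT was not called (adjusted p = 0.0504, permutation), and without replicate 3 GGG was not (adjusted p = 0.0988, permutation), which left 3 of 4 GGN in each case. The 16 shares sum to a fixed total, so they are not independent. With bases read from opposite-strand sites alone, where fewer sites have both neighbours, 5 of 16 contexts were called and 1 of the 4 GGN.

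In promoter windows, where each context is divided by its own number of positions, GGA stood apart from the other 3. Its relative rate was 1.08 ± 0.0772 in TMZ cells and 1.18 ± 0.0287 in naked DNA, the lowest of the 4 in 12 of 12 and 3 of 3 libraries. GGC had 1.47 ± 0.0716 in TMZ cells and 1.39 ± 0.0588 in naked DNA, GGG 1.51 ± 0.137 and 1.71 ± 0.0579, and GGT 1.57 ± 0.21 and 1.57 ± 0.0377. GGT was highest in 6 of the 12 TMZ cell libraries, GGC in 4 and GGG in 2, while GGG was highest in 3 of 3 naked DNA libraries. In solvent cells the lowest of the 4 was GGC in 9 of 12 libraries and GGA in 3.

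Solvent values for GGA, GGC, GGG and GGT were 0.895 ± 0.148, 0.816 ± 0.217, 1.13 ± 0.156 and 1.11 ± 0.224 (n = 12). All 4 were higher under TMZ (adjusted p = 0.00289, 8e-05, 0.000183 and 0.000215 over 16 contexts, exact permutation tests), where 37.5% of the 16 contexts were called higher. The ratio of the group means was largest for GGC, at 1.80, and smallest for GGA, at 1.21. Without MGMT 1x solvent replicate 1 the solvent means of GGA, GGC, GGG and GGT were 0.862, 0.765, 1.10 and 1.06 (n = 11), and all 4 were again called.

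**Figure D2:**
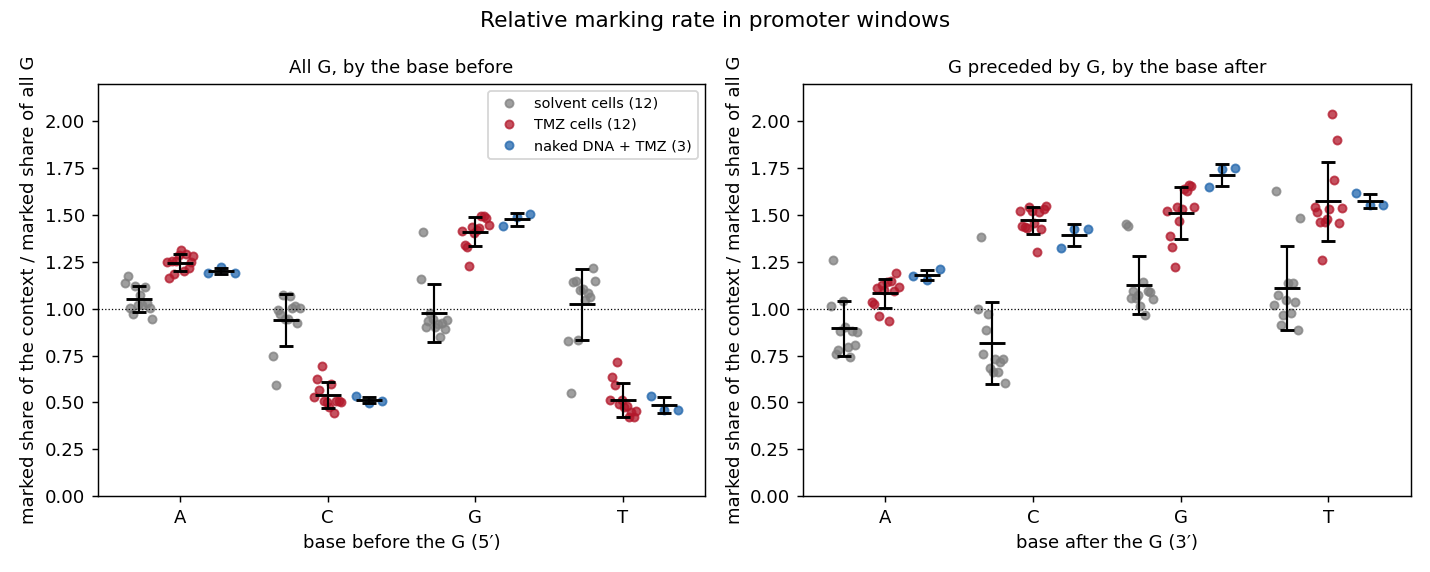
Relative rate in promoter windows (marked share of a context over the marked share of all G; dotted line at 1), 1 point per library with mean and SD in black, by the base before the G (left) and, for G preceded by G, by the base after it (right). Means for G after G are 0.979 in solvent cells, 1.41 in TMZ cells and 1.48 in naked DNA, and among those the value before A is the lowest in TMZ cells and naked DNA.

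The base 1 place further upstream also went with the rate. In TMZ cells AGGT had the highest relative rate of the 16 NGGN contexts, 1.91 ± 0.212 (SD, n = 12; lowest 1.43, highest 2.24), followed by AGGG at 1.75 ± 0.245 and AGGC at 1.70 ± 0.181. CGGA had the lowest, 0.841 ± 0.0973. The order of neighbours such as AGGG and AGGC was within their spread. With A further upstream, GG was highest in 11 of 12 TMZ libraries before G and before T, in 10 before C and in 8 before A. With C further upstream it was lowest in 12 of 12 before A, 11 before G, 9 before T and 7 before C. In naked DNA AGGG led with 1.96 ± 0.099 (n = 3) and AGGT had 1.73 ± 0.028, and AGGA was the highest of the NGGA contexts in 1 of 3 libraries. Under solvent CGGA was lowest of the NGGA contexts in 7 of 12 libraries.

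Along a run of G, the first G had the lowest mean in TMZ cells and naked DNA. It was the lowest place in 12 of 12 TMZ libraries in runs of 2 and of 3, and in 10 of 12 in runs of 4 and of 5. An isolated G had a relative rate of 0.713 ± 0.0395 in TMZ cells (n = 12) and 0.666 ± 0.0187 in naked DNA (n = 3). In runs of 2 the rate went from 0.999 ± 0.0575 at the first place to 1.41 ± 0.0528 at the second in TMZ cells, and the second was higher in 12 of 12 libraries. In naked DNA these values were 0.983 ± 0.0223 and 1.35 ± 0.0151, with the second higher in 3 of 3. In solvent cells the order was the other way, 1.17 ± 0.0519 and 0.928 ± 0.159, and the second place was higher in 1 of 12 libraries. Without MGMT 1x solvent replicate 1 the solvent values were 1.18 ± 0.0377 and 0.888 ± 0.0823 (n = 11).

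Runs of 3 had rates of 0.89 ± 0.0716, 1.54 ± 0.193 and 1.31 ± 0.0828 from the 5′ end in TMZ cells, and 0.891 ± 0.0167, 1.64 ± 0.0142 and 1.32 ± 0.0259 in naked DNA. The last G was below the middle one in 11 of 12 and 3 of 3 libraries. It was also below it in 10 of 12 solvent libraries, with means of 1.05 and 0.831 there and of 1.04 and 0.783 without MGMT 1x solvent replicate 1. Runs of 4 had 0.955, 1.41, 1.55 and 1.19 in TMZ cells (SD 0.122, 0.113, 0.13 and 0.112) and 1.03, 1.68, 1.72 and 1.41 in naked DNA (SD 0.0719, 0.0242, 0.0502 and 0.0471). In runs of 5, of which there were 29530, the second place reached 1.53 ± 0.209 in TMZ cells and 2.01 ± 0.226 in naked DNA. In solvent cells the last G of runs of 4 was below the one before it in 11 of 12 libraries, with means of 0.871 and 1.14. Solvent values in runs of 5 spread widely, with an SD of 0.629 at the second place. The printed window of TMEM178A shows both kinds, single capitals inside runs and stretches such as GGG where neighbouring positions were marked in the same or different libraries.

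**Figure D3:**
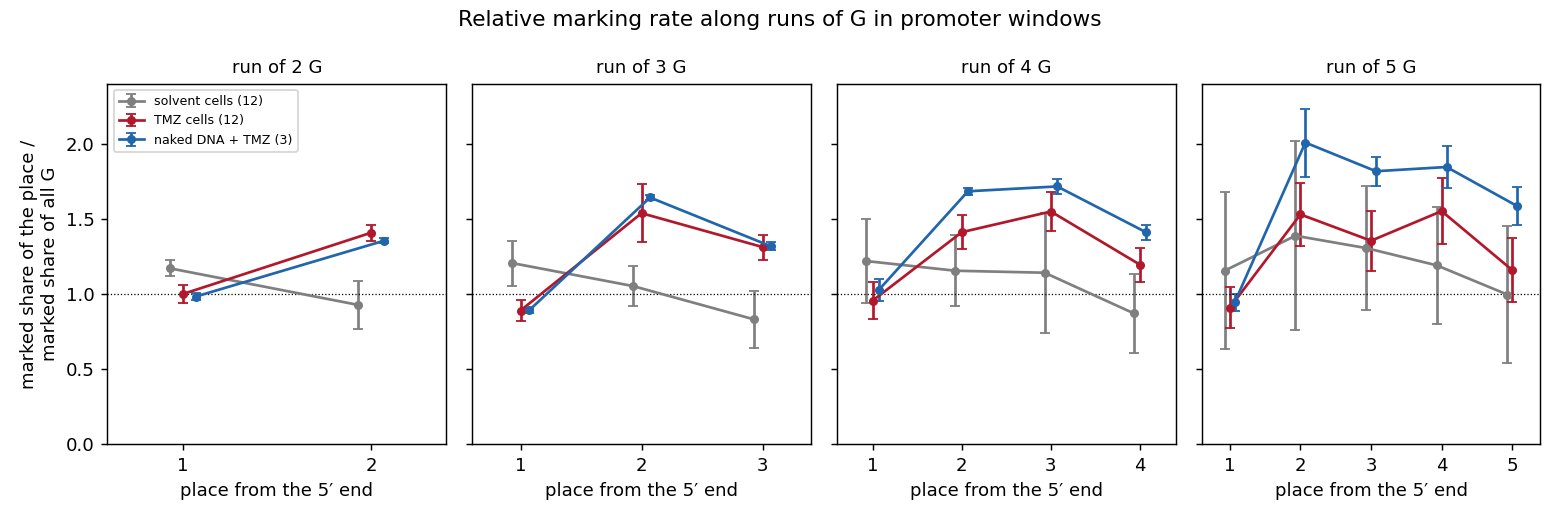
Relative rate in promoter windows (mean and SD over libraries; dotted line at 1) by place in runs of 2, 3, 4 and 5 G, counted from the 5′ end. In TMZ cells and naked DNA the first place is the lowest mean of each run, and in runs of 2 the solvent means fall from 1.17 to 0.928 where the TMZ means go from 0.999 to 1.41.

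Cells exposed 3 times had a larger share of GG sites than cells exposed 1 time, a difference that was not found after solvent sites were subtracted in the 11 libraries that allow it. Read against all 12 solvent libraries, the shares of replicates 1, 2 and 3 were 34.2%, 31.4% and 35.4% in WT 1x, 31.2%, 28.6% and 34.6% in MGMT 1x, 35.3%, 38.1% and 37.8% in WT 3x and 34.0%, 37.5% and 36.0% in MGMT 3x. The groups overlapped, since 34.6% and 35.4% in 1x libraries lay above 34.0% in MGMT 3x replicate 1. The means were 36.4% ± 1.62 after 3 exposures and 32.6% ± 2.58 after 1 (SD, n = 6 each). They differed by 3.86 points (p = 0.02 by exact two-sided permutation inside each genotype, adjusted p = 0.05), and by 4.61 and 2.35 points within library sets 2 and 3.

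The share of all sites that lay at G moved with it, from 32.6% to 52.6% in 1x and from 52.6% to 64.1% in 3x libraries. Subtracting each solvent library's GG and other G sites, scaled to non-G sites, left MGMT 1x replicate 1 with fewer than 0 G sites, so it has no subtracted share. Over the other 11 libraries, which kept 36.6% to 80.6% of their known G sites, subtracted shares ran from 40.7% to 47.4% in 1x and from 40.1% to 42.9% in 3x. The difference was then -1.23 points (exact permutation p = 0.37), against 3.79 points in the same 11 libraries before subtraction (exact permutation p = 0.03). The highest subtracted share, 47.4%, was that of WT 1x replicate 1, of set 1, and the others reached at most 42.9%. Without it the difference was -0.12 points (exact permutation p = 0.87), and 3.93 points before subtraction (exact permutation p = 0.05). Leaving out replicate 2 gave 1.90 points (exact permutation p = 0.222), while leaving out replicate 1 or 3 gave 4.83 and 4.85 points (p = 0.0556 each, the smallest that this exact test allows).

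On the log2 relative rate over all autosomes, 3 exposures gave 0.61 ± 0.12 and 1 exposure 0.31 ± 0.15 (n = 6 each), a difference of 0.30 (exact permutation p = 0.015, adjusted p = 0.045). The groups overlapped, from 0.43 to 0.73 after 3 exposures and from 0.13 to 0.53 after 1. With no minimum score it was 0.15 (exact permutation p = 0.11), and without single replicates it was 0.20 to 0.35 with exact permutation p of 0.0556 to 0.167. In promoter windows the difference was 0.10 (exact permutation p = 0.02), with mean relative rates of 1.39 ± 0.05 in WT 1x, 1.33 ± 0.101 in MGMT 1x, 1.47 ± 0.0317 in WT 3x and 1.45 ± 0.0461 in MGMT 3x (n = 3 each). None of the 16 contexts was called between 3 and 1 exposures (0 of 16, by the exact permutation test with Benjamini-Hochberg adjustment; 8 had an unadjusted p under 0.05). The largest differences among GGN were those of GGC, 9.03% against 7.34% of sites (adjusted p = 0.09, permutation), and GGG, 8.23% against 6.61% (adjusted p = 0.09, permutation).

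MGMT-transfected cells had a slightly lower GG share than WT cells under TMZ, within the spread between libraries. The means were 33.7% ± 3.24 in MGMT and 35.4% ± 2.45 in WT (SD, n = 6 each), a difference of -1.69 points (p = 0.18 by exact two-sided permutation inside each exposure number, adjusted p = 0.338). MGMT was lower in 6 of 6 same-numbered pairs, by 0.543 to 2.98 points. Tested over these pairs (replicate block), an exact sign-flip gave p = 0.03125, the smallest that 6 pairs allow. Within library sets 1, 2 and 3 the difference was -2.98, -2.04 and -0.952 points. G made up 32.6% to 61.7% of sites in MGMT and 41.9% to 64.1% in WT libraries, and after solvent subtraction, over the 11 libraries that have such a share, the difference was -0.35 points (exact permutation p = 0.88) and 0.76 points without WT 1x replicate 1 (exact permutation p = 0.333), so it has no settled direction.

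The log2 relative rate over all autosomes was 0.45 ± 0.21 in MGMT and 0.47 ± 0.21 in WT (n = 6 each), a difference of -0.02 (exact permutation p = 0.765), with MGMT higher in 2 of 6 pairs. None of the 16 contexts was called (0 of 16, exact permutation tests; 3 with an unadjusted p under 0.05). For GGA in promoter windows, the relative rate was 1.04 ± 0.0775 in MGMT and 1.13 ± 0.0516 in WT (exact permutation p = 0.005, adjusted p = 0.08 over 16 contexts).

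Naked DNA, purified and so free of chromatin and repair, gave GG shares of 36.1%, 36.2% and 36.9%. All 3 lay inside the range of the 12 TMZ cell libraries, 28.6% to 38.1%. The means were 36.4% ± 0.427 (SD, n = 3) and 34.5% ± 2.88 (n = 12), which differ by 1.91 points (exact permutation p = 0.277, adjusted p = 0.462), and within library set 1 it was 3.42 points. The log2 relative rate over all autosomes was 0.74 ± 0.0049 in naked DNA and 0.46 ± 0.20 in cells. The groups only just missed overlap, with 0.734 the lowest value in naked DNA and 0.732 the highest in cells. These values rested on 274 to 495 marked GG positions per library in naked DNA and 39 to 289 in cells. That difference of 0.28 (exact permutation p = 0.0286) did not pass after adjustment (adjusted p = 0.0612), and it was 0.08 with no minimum score and 0.07 in promoter windows.

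No context differed between naked DNA and cells after adjustment (0 of 16 by share, and 0 with an unadjusted permutation p under 0.05; 0 of 16 by promoter rate, and 2 with an unadjusted p under 0.05). In promoter windows GGG had 1.71 ± 0.0579 in naked DNA and 1.51 ± 0.137 in cells (exact permutation p = 0.0308, adjusted p = 0.27). GGC went the other way, 1.39 ± 0.0588 and 1.47 ± 0.0716 (exact permutation p = 0.108, adjusted p = 0.345).

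Neighbouring G were rarely marked in the same library. Of 197401 GG sites in TMZ cells, 2857 (1.45%) had the G before them marked on the same strand in the same library, from 0.65% to 1.999% per library. In naked DNA it was 3374 of 111423 (3.03%), at 4.91%, 1.42% and 1.59% in replicates 1, 2 and 3. The number expected was taken from how often the 1 or 2 libraries of the same group in other library sets marked that preceding G, scaled to their sites at that base. Summed over libraries it was 3221 in cells and 2703 in naked DNA, so observed over expected was 0.887 and 1.25. Without the libraries of set 1 it was 0.868 in cells and 0.577 in naked DNA, where 930 adjacent sites were observed and 1612 expected. The libraries left out still supplied expected numbers for others. Those of naked DNA replicates 2 and 3 came from replicate 1 alone, which is of set 1. Replicates 2 and 3 of the 1x groups drew on set 1 in part, so neither value is free of it.

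The ratio depended on the library set. On the log2 scale it was 1.58 and 1.45 in WT and MGMT 1x TMZ replicate 1 and 1.16 in naked DNA replicate 1, all of set 1, against -0.82 and -0.77 in the other naked DNA libraries and -1.05 to 0.45 in the other cell libraries. With the base before read only from opposite-strand sites, naked DNA had 0.26, 0.29 and 0.08. The cell libraries then ran from -0.12 to 1.83, with a median of 0.30 and the highest value resting on 8 adjacent sites. In promoter windows 977 adjacent marks were observed and 886 expected in TMZ cells, and 1132 and 895 in naked DNA, with log2 ratios of 0.25 to 0.47 in the 3 naked DNA libraries and of -0.92 to 0.79 in cells.

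No comparison of the adjacent-mark ratio passed the test with the base read from either strand. Differences were 0.10 for TMZ against solvent (exact permutation p = 0.798; 0.097 without MGMT 1x solvent replicate 1), -0.36 for 3 against 1 exposures (p = 0.465, exact), -0.23 for MGMT against WT (p = 0.575, exact) and -0.23 for naked DNA against cells (p = 0.69, exact). With opposite-strand neighbours 3 against 1 exposures gave -0.68 (exact permutation p = 0.01, not adjusted). The ratio of GG sites minus that of AG sites in the same library was -0.02 ± 0.29 on the log2 scale (n = 15; exact sign-flip permutation p = 0.805; higher for GG in 9 of 15).

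**Figure D4:**
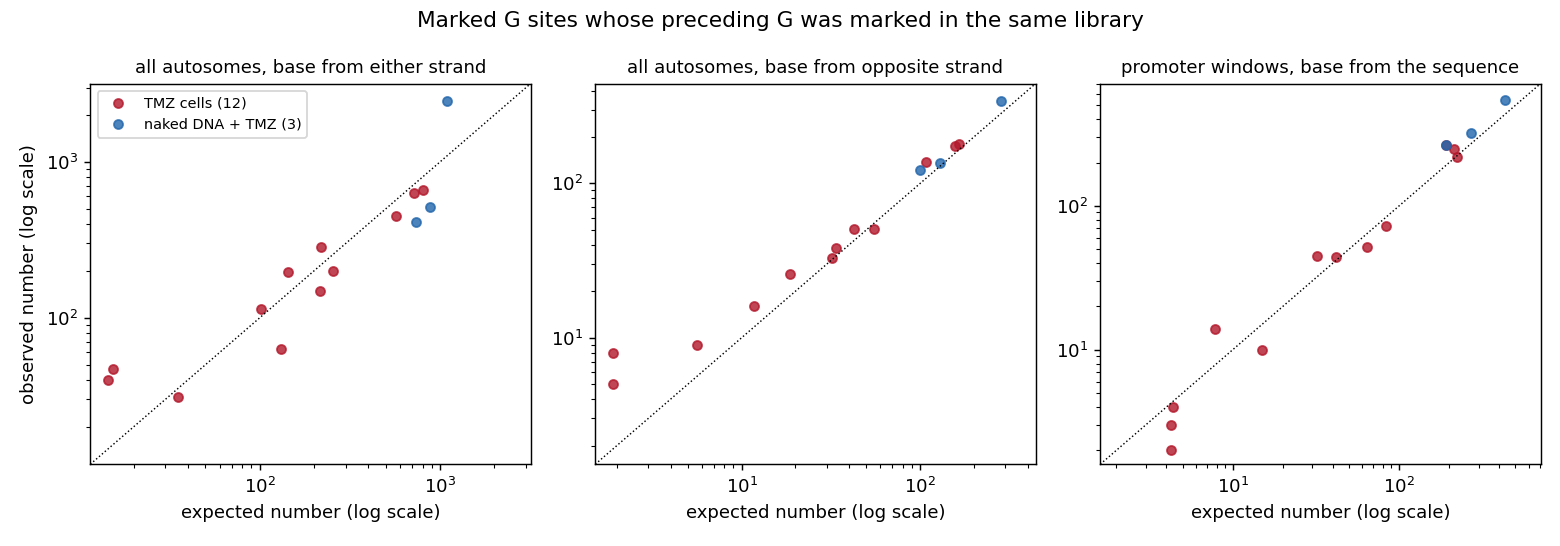
Observed against expected number of marked G sites whose preceding G was marked in the same library, 1 point per library, both axes on a log scale, with equality as the dotted line. With the base read from either strand (left) 2 cell libraries and 1 naked DNA library of set 1 lie far above the line, and with the base read from the opposite strand (middle) or from promoter sequences (right) naked DNA lies at 0.08 to 0.47 above it on the log2 scale.

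GG sites recurred more often than AG sites between libraries of a group that share no set. In TMZ cells 0.784% to 5.00% of GG sites (median 1.53%) were marked again in the 1 or 2 libraries of the same group from other sets, against 0.595% to 3.91% of AG sites (median 1.24%). In naked DNA these shares were 3.12% to 4.01% and 2.52% to 3.41%. With 2 other libraries their counts were added, so a site found in both counts 2 times. Since the number of other libraries and their sizes differ, only values from the same library were compared. The shares are not divided by how often each context was marked. A context marked at a higher rate can also be marked again more often. The promoter rate of GG was above that of AG in each of these libraries. Over all autosomes, with 12 solvent libraries as reference, AG was marked more often than GG in WT 1x TMZ replicates 1 and 2 and MGMT 1x TMZ replicate 2. The marked shares of AG and GG there were 0.0918% and 0.0763%, 0.2201% and 0.2152%, and 0.1001% and 0.0978%. Whether GG sites recurred beyond these rates was not tested. GG was above AG by 0.34 ± 0.08 on the log2 scale, from 0.23 to 0.49, in 15 of 15 libraries (exact two-sided sign-flip permutation test, p = 6.1e-05, the smallest it can give; adjusted p = 0.000305). Each shared position counts in both libraries of a pair, so the 15 values are not independent. The test treats them as independent, and its p-values do not allow for this.

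GG sites also lay within protein-coding genes slightly more often than the other known G sites pooled, most of which follow A or T. The share within genes was 46.9% to 50.4% for GG in TMZ cells and 44.6% to 47.9% for the others, and 48.2% to 49.2% against 46.7% to 47.4% in naked DNA. The difference of 1.75 ± 0.66 points (n = 15) was positive in 15 of 15 libraries (exact sign-flip permutation test, p = 6.1e-05; adjusted p = 0.000305). With no minimum score it was 3.94 points. The share of all readable GG and other G positions within genes is not given here. Where marks fall and where readable positions lie can therefore not be told apart. By single base at a score of 30 or more, GG was above AG and above TG in 15 of 15 libraries and above CG in 0 of 15. The order of GG and CG depended on the setting, since GG was above CG in 15 of 15 libraries with no minimum score and in 3 of 15 with opposite-strand neighbours. With opposite-strand neighbours GG was above AG in 14 of 15 libraries, and in 8 of 15 when no minimum score was set as well. In TMZ cells the shares within genes ran from 45.2% to 47.6% after A, from 42.9% to 47.1% after T and from 48.4% to 55.8% after C.

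**Figure D5:**
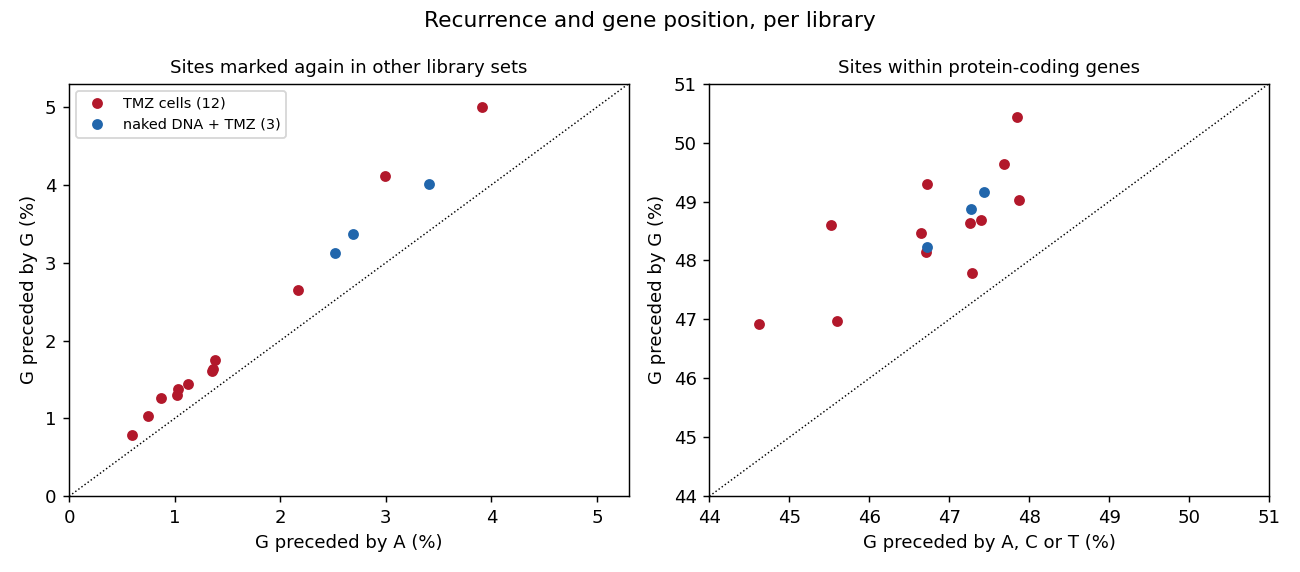
Each point is 1 library, with equality as the dotted line. Left, percent of sites marked again in libraries of the same group from other sets, added over those libraries, for G preceded by G against G preceded by A; right, percent of sites within protein-coding genes for G preceded by G against G preceded by the other 3 bases pooled. All 15 points lie above the line in both panels.

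The GG share varied by chromosome as well, given here without a test. The share of GG among the readable G positions of each chromosome is not given. Where marks fall and where readable GG positions lie can therefore not be told apart by chromosome. The median over the 15 libraries was highest on chromosome 19, at 41.7%, followed by chromosome 22 at 39.8%, chromosome 17 at 39.3% and chromosome 20 at 37.9%. It was lowest on chromosome 21 at 33.1% and chromosome 4 at 33.3%. Chromosome 19 was the highest in 11 of 15 libraries. Both strands were marked alike, with 49.7% to 51.9% of GG sites on the plus strand per library.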

How the data were processed

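O6-MeG-seq of 27 libraries was used: 12 of TMZ-treated cells, 12 of solvent-treated cells and 3 of naked DNA. The deposited files have no header and list chromosome, position, strand, base and a whole-number score of 0 to 42, which the authors did not describe in the sources used here and which behaves as an alignment score, not a read count. The submitters' processing notes name GRCh38 and Trimmomatic 0.38 and 0.39, Bowtie2 2.3.5.1, GATK 4.2.0.0, SAMtools 1.12 and bedtools 2.29.2, with no role or order. They also name FastQC 0.11.9 and cutadapt, the latter without a version. Members, contexts and lists were chosen with earlier results of these data known.

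Neighbour bases were read from solvent sites. At 2157657 positions covered more than once, 0 bases conflicted, and all 560806 sites compared with RefSeq promoter sequences (GRCh38.p14) were equal. Promoter windows are the 300 bases around each start, with all genes of the table on 21 of the 22 autosomes (chromosome 8 was not used in promoter windows). A test was an exact two-sided permutation of library labels within the other factors, or of signs within pairs or libraries, adjusted (Benjamini-Hochberg) over 15 single values or over 16 contexts, and called at 0.05. A prior of 0.5 was added to adjacent counts. Named windows are the 3 with most marked GG positions, ties by position. Gene shares used 19122 protein-coding genes. Library sets are groups linked by pairs that shared non-G sites more than 1.6 times as often as the median pair. Neighbour reading and the permutation test were tested on simulated data, where the share read from neighbours differed from the true share. Libraries are therefore compared against the same neighbours, except for shares after solvent subtraction and the rise under TMZ compared between exposure numbers. For these, and within the TMZ and solvent means over all genotype and exposure groups, the neighbours differ between groups.

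Same-numbered WT and MGMT libraries of the same treatment deviated together over bins (r above 0.1 in 12 of 12 pairs, lowest 0.194) with no minimum score, and in 6 of 12 at a score of 30. The numbers were taken to pair the genotypes. Analyses used Python 3.11.15, numpy 2.4.6, pandas 2.3.3 and scipy 1.17.1.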

Additional observations from a re-analysis of the deposited data

Results flagged for a closer look

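The rise of the GG share under TMZ over solvent differed between exposure numbers before adjustment. It was 15.7 ± 2.36 points after 3 exposures and 9.97 ± 5.47 points after 1 (SD, n = 6 pairs each), a difference of 5.78 points (exact two-sided permutation test, p = 0.0216, adjusted p = 0.173 over 8 such comparisons). The 9 solvent libraries that supplied neighbour bases for these shares differed between genotype and exposure groups. The log2 relative rate in promoter windows gave 0.66 ± 0.10 and 0.41 ± 0.28, a difference of 0.25 (exact permutation p = 0.0498, adjusted p = 0.199). Neither passed after adjustment, and the 1x values include the solvent library described next.

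The library labelled MGMT 1x solvent replicate 1 stood apart from the other 5 MGMT solvent libraries in its GG share, 30.8%, and in its log2 promoter relative rate of 0.49. Its gap to the next library was 0.869 of the range of these libraries for the share and 0.930 for the rate, against a threshold of 0.625. By chance about 1 in 20 such groups passes that threshold, which is not the rate for gaps of this size. The label of this library goes against its sites at G, 43.7% against at most 27.8% in the other solvent libraries.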

How the results depend on the processing

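Of 163 alternatives, 127 kept the direction and the side of the threshold (for values without a test, stayed within 1 SD; for counts, within 1.5 times). Outside the adjacent-mark results, 3 of 125 changed direction, all after solvent subtraction, run without MGMT 1x replicate 1, which had no G sites left. The share for 3 against 1 exposures was then -1.23 points, and -0.12 without WT 1x replicate 1 too, where MGMT against WT was 0.76. The cause was not tested. The planned subtraction over all libraries gives no value for MGMT 1x replicate 1 and was not used. The difference of GG share between TMZ and solvent moved to 5.097 points within library set 1 and 15.9 within set 3, and leaving out single libraries or replicates gave 11.5 to 14.7. For 3 against 1 exposures it was 1.90 to 4.85 points without single replicates, and the log2 relative rate was 0.15 with all scores and 0.20 to 0.35 without single replicates. For MGMT against WT the share with the replicate block was -1.69 points (exact sign-flip p = 0.03125), and the block moved no other call. For naked DNA against cells the relative rate was 0.084 with all scores, 0.069 in promoter windows and 0.22 to 0.33 without single replicates. Contexts called of 16 for TMZ against solvent were 5 with opposite-strand neighbours and 11 to 14 without single libraries or replicates, and for 3 against 1 exposures 3 with all scores (0 of them GGN).

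Adjacent-mark ratios changed direction in 16 of 38 alternatives, and the cause was not tested. TMZ against solvent gave -0.17 with all scores, -0.18 on thinned sites, -0.50 in promoter windows and -0.17 to 0.31 without single replicates. The 12 solvent libraries had only 10 adjacent marks in promoter windows, with 4.75 expected, so their ratios there depend largely on the prior of 0.5. In MGMT 3x solvent replicate 1, for example, 4 adjacent marks against 0 expected gave a log2 ratio of 3.17. For 3 against 1 exposures it was 0.79 on thinned sites, -0.68 with opposite-strand neighbours (exact permutation p = 0.01), 0.16 in promoter windows and -0.67 to 0.0096 without single replicates. MGMT against WT gave 0.040 with all scores, 0.17 with opposite-strand neighbours and 0.093 in promoter windows. Naked DNA against cells gave 0.050 with all scores, 0.38 on thinned sites, 0.40 in promoter windows and -0.45 to 0.0030 without single replicates. GG against AG gave 0.13 with opposite-strand neighbours and -0.061 to 0.030 without single replicates.

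Chosen after seeing the data were promoter windows for the share, the contexts and the adjacent-mark ratio, opposite-strand neighbours for the 4 group comparisons of the adjacent-mark ratio, leaving out MGMT 1x solvent replicate 1, and the subtraction over 11 or 10 libraries with its unsubtracted counterparts. Only 1.52% to 1.92% of G sites had a known base before them.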

Other observations

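The GG share also differed by score class. Its median over the 15 libraries was 32.1% for sites with a score under 30, which are no members, 37.1% for scores of 30 to 39 and 35.0% for scores of 40 or more, with ranges of 25.5% to 34.4%, 29.7% to 40.1% and 28.4% to 37.7%.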
